A study of Homo sapiens with 12 samples.

Results

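The genes described here make cholesterol and fatty acids or control and move these lipids: enzymes of the mevalonate and sterol pathways, enzymes of fatty acid synthesis and modification, the SREBP transcription factors, and cholesterol handling proteins. They were chosen by gene name as 33 rows of a gene expression table of 37471 genes. All 33 passed the filter on low values, a mean FPKM (fragments scaled to transcript length and library size) of at least 1 over the 12 libraries, which left 9778 genes for testing.

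The libraries were made from polyA RNA of CAL62, an established line from an anaplastic thyroid carcinoma, a dedifferentiated form of thyroid cancer. Of 2 isogenic CAL62 derivatives, the miR-139 line carried the mature miRNA hsa-miR-139-5p under a doxycycline inducible promoter, and the scrambled line carried a non-targeting control under such a promoter. Each line was sampled untreated and after 96 hours with 1 µg/ml doxycycline, which gave 4 groups of 3 libraries. Untreated libraries bear a time of 0 hours in the labels, whereas the series' design text and treatment protocol describe growth with or without the drug over 96 hours, so it is unclear whether untreated cells were grown for the same time. Only 1 derivative per construct was used, and whether each is a clone or a pool is not stated, so that a difference between the lines cannot be told apart from a difference between derivatives. All 4 groups share the CAL62 background, the RPMI medium and the bovine serum, which itself supplies cholesterol and fatty acids.

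Each column name held a group and 1 of 3 tags, C, NE or TR, each tag standing once in every group. What the tags stand for is not given in the sources used here, and the design text says only that the experiment was replicated 3 times. Libraries are therefore called by group and tag, and p-values reflect how far these 12 libraries scatter, part of which may be technical. If a tag marks 1 of the 3 replications, its 4 libraries are not independent replicates of that tag. The p-values between tags would then not say whether another replication would differ likewise. Wherever the 4 values of a tag are listed, the order is miR-139 untreated, miR-139 with doxycycline, scrambled untreated, scrambled with doxycycline.

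Cells make cholesterol from acetyl-CoA through mevalonate, isoprenoid diphosphates, squalene and lanosterol, and make fatty acids from the same acetyl-CoA, which citrate carries out of the mitochondrion. SREBP2, encoded by SREBF2, drives most cholesterol synthesis genes when the sterol content of the endoplasmic reticulum is low, and SREBP1, encoded by SREBF1, drives fatty acid genes. Both are membrane proteins that must be cleaved before they enter the nucleus, so that the mRNA level of either factor is not a measure of its activity. On promoters, SREBP acts together with NF-Y, which binds CCAAT, and with Sp1, which binds GC-rich elements such as GGGCGG.

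Between the 4 groups, no lipid gene passed the test: of 33 genes, 0 were called for doxycycline in either line, for the difference between the lines' responses, or for the lines against each other. Between the column tags there were calls, among lipid genes as among all genes. In the 4 NE libraries, 17 of the 33 genes were higher than the mean of C and TR and 7 were lower. Of all tested genes 52.0% were called, 28.0% higher and 24.0% lower. After rescaling without mitochondrially encoded genes the lipid counts were 10 and 9. The differences were led by EBP, PMVK, MVK and NSDHL on the higher side and by GGPS1, ACSL3 and TM7SF2 on the lower side. Between C and TR, 8 genes were higher in C and 2 were lower, beside 16.6% of all tested genes called, and leaving out 1 library gave 5 to 12 calls in place of 10. The cholesterol transporters ABCG1 and NPC1, the desaturase relative FADS3 and IDH1, the last lower in C, were called under every alternative tried.

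Promoter sequences of 5 genes are shown. SREBF2 is the gene whose factor controls the pathway, and EBP, PMVK, MVK and NSDHL are the 4 lipid genes with the largest differences in the NE libraries. Each is the 250 bases before the RefSeq transcription start on GRCh38.p14, 5′ to 3′ on the gene's strand, which is the minus strand for PMVK and the plus strand for the others. The build differs from the GRCh37 and hg19 named for the expression table. Capitals mark TCACNCCAC, a sterol regulatory element letter pattern, and CCAAT, or their reverse complements (CCAAT reads ATTGG).
SREBF2, chr22:41832855-41833104: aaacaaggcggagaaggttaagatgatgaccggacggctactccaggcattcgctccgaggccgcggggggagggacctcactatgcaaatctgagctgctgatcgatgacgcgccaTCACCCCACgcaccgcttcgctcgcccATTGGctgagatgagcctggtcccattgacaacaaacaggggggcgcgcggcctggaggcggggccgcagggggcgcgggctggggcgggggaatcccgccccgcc
EBP, chrX:48521558-48521807: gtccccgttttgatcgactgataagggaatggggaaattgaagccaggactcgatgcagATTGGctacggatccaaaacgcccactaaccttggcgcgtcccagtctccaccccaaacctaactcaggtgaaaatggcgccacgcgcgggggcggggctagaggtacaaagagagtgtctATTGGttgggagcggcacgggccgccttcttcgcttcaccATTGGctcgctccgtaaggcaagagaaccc
NSDHL, chrX:152830813-152831062: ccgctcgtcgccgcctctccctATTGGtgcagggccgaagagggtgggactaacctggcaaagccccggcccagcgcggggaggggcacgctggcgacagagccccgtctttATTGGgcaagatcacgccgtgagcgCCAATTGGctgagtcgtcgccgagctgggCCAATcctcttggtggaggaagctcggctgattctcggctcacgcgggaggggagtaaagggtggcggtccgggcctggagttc
PMVK, chr1:154936720-154936969: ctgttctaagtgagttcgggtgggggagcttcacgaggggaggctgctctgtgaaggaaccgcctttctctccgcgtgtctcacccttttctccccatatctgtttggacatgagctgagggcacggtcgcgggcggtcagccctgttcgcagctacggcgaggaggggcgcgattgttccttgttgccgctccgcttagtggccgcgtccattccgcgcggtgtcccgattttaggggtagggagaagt
MVK, chr12:109573544-109573793: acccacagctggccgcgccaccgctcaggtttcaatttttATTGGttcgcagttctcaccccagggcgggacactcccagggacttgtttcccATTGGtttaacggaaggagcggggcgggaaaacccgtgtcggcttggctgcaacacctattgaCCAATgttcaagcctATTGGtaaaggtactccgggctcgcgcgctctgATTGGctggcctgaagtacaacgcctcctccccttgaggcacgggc

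CCAAT, on either strand, stood 3 times in the EBP window, 5 times in the NSDHL window, where 1 pair overlaps as CCAATTGG, 5 times in the MVK window, and not at all in the PMVK window. GGGCGG was the third pattern searched, and all were read on both strands. RefSeq windows, 250 bases before to 50 after each start, were found for 30 of the 33 genes; HSD17B12, FASN and ABCG1 had none. Of these 30 genes, 25 held CCAAT, against 39.7% of the 27305 genes with a window. GGGCGG stood in 29 of 30, against 48.3% of all genes. TCACNCCAC stood in SREBF2 alone, against 1.39% of all genes. The 27305 genes were not filtered on expression, whereas all 30 lipid genes passed that filter. These shares therefore compare unlike sets, and the shares among tested genes were not computed. CCAAT stood in 14 of the 16 matched genes that were higher in the NE libraries, in 4 of the 6 that were lower, and in 7 of the 8 that were not called. Whether it goes with the direction was not tested. Genes with several starts had more than 1 window searched. Over the 44 windows of the 30 genes, CCAAT stood in 65.9% against 34.6% of all 35116 windows, and matches of different patterns overlapped in 1 of the 44. A match is only a run of letters in this window.

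The induced miRNA is shown because its seed (bases 2 to 8, in capitals) sets which transcripts it can pair with. It is encoded on the minus strand of GRCh38.p14, chr11:72615102-72615124, and is 23 bases long.
hsa-miR-139-5p: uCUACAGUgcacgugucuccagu

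The letters that pair with this seed, ACTGTAG, stood in the longest annotated 3′ UTR (GENCODE 29) of 4 of the 33 genes, against 11.4% of the 7610 tested genes with a UTR. Each of these UTRs held 1 such site, printed with the match in capitals.
LSS: tcttgatttttACTGTAGgttcatttctg
ACACA: cagagctccttACTGTAGgtcttaccctg
ACSL3: gattctcagttACTGTAGgcatcaaaagg
SCD: aagggaagatcACTGTAGtttagttctgt

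In the miR-139 line the log2 change with doxycycline was −0.074 for LSS, −0.025 for ACACA, 0.014 for ACSL3 and 0.0035 for SCD. None of the 4 passed the test. Their median was −0.011, beside −0.012 for the 29 lipid genes with no such site, and 2 of the 4 values were negative. Over all tested genes the medians were −0.047 with the site and 0.0093 without it.

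The target of the miRNA checks the labels. HNRNPF, the splicing factor named in the series title as the target of this miRNA, measured 193, 238 and 184 FPKM (C, NE, TR) in untreated miR-139 cells and 96.7, 113 and 85.9 FPKM after doxycycline, with no overlap. In the scrambled line it measured 191, 246 and 188 FPKM untreated and 198, 265 and 184 FPKM treated. HNRNPF thus went with the labels of the libraries, and it also stood highest in NE in every group.

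Several values set the NE libraries apart as a whole. Mitochondrially encoded genes took 6.08 to 9.18% of the summed FPKM in NE, 11.4 to 12.8% in C and 12.3 to 13.1% in TR. The nuclear RNA MALAT1 measured 91.9 to 147 FPKM in NE and 209 to 403 FPKM elsewhere, and NEAT1 56.3 to 109 FPKM in NE and 208 to 404 FPKM elsewhere. The summed FPKM of all genes used ranged from 534216 to 664359 per library. Depth relative to the median library, read from the steps between low FPKM values, ran from 0.671 to 1.39, but only 42.6 to 52.6% of the steps fell on ratios of whole fragments within 0.02 log2 units, so no counts were rebuilt and the absolute depth is unknown. As for cell type, PAX8, a thyroid lineage factor, was present at 56.0 to 142 FPKM, whereas NKX2-1, the other thyroid factor checked, was at 0 in all 12 libraries and TSHR and SLC5A5 peaked at 0.0128 and 0.0217 FPKM. Leukocyte markers summed to at most 0.153 FPKM, endothelial markers to at most 0.406 FPKM, and adipocyte and hepatocyte markers to at most 1.06 FPKM. Of 4 fibroblast markers, COL1A1 measured 33.2 to 100.4 FPKM and COL3A1 was at 0 throughout.

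**Figure D1:**
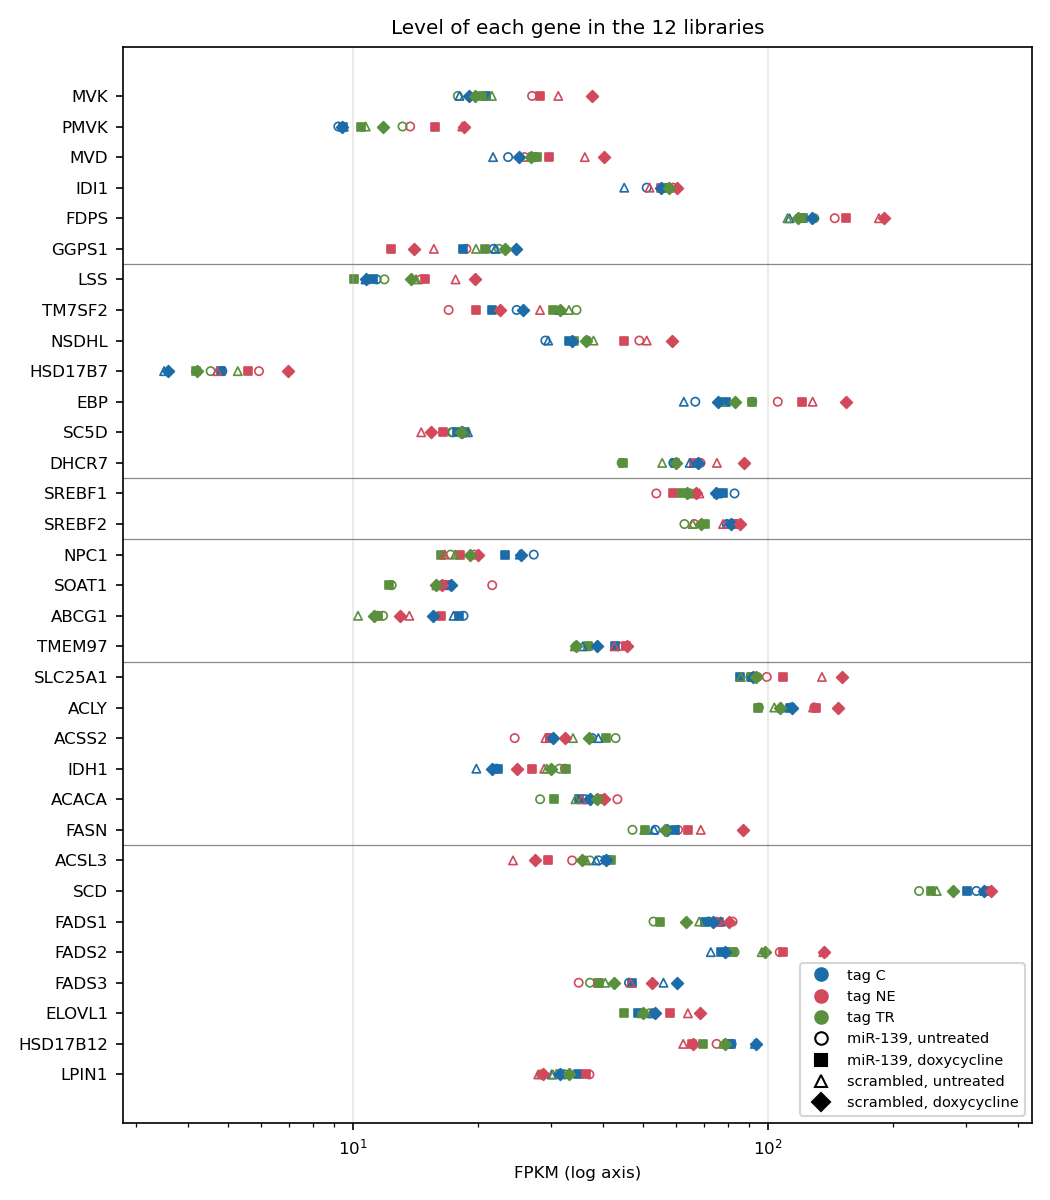
FPKM of each of the 33 genes in the 12 libraries on a log axis; color gives the column tag, and marker shape gives the line and treatment. SCD has the highest level and HSD17B7 the lowest, and the NE points stand to the right of the others for MVK, PMVK, FDPS, NSDHL and EBP and to the left for ACSL3.

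Levels spanned a wide range. By mean FPKM over the 12 libraries, which is corrected for transcript length and so can be compared between genes, SCD stood first at 304 FPKM, followed by FDPS at 136, ACLY at 115, SLC25A1 at 101, FADS2 at 96.3 and EBP at 94.6 FPKM. SCD stood above 97.6% of the tested genes. At the low end were HSD17B7 at 4.84, PMVK at 12.5, LSS at 13.4 and ABCG1 at 14.04 FPKM. The ranges of neighbours in this order overlap, as for ACLY, SLC25A1, FADS2 and EBP, but the lowest SCD value, 231 FPKM, lay above the highest FDPS value, 189.9 FPKM, and the highest HSD17B7 value, 6.97 FPKM, below the lowest PMVK value, 9.203 FPKM. Across libraries, EBP varied most, with its highest value 2.46 times its lowest, and SC5D least, at 1.296 times. Pseudogene copies could share fragments with their parent gene. SLC25A1P5 averaged 1.47 FPKM beside 101 FPKM for SLC25A1, and HSD17B7P2 0.464 FPKM beside 4.84 for HSD17B7, so the HSD17B7 values are uncertain. The antisense gene IDH1-AS1 averaged 0.343 FPKM.

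The NE libraries were compared with the mean of C and TR in a fit that kept the 4 groups as a term. Of the 9778 tested genes 52.0% were called in this comparison, 28.0% higher and 24.0% lower, so that a call is common and the count of 24 among 33 lipid genes is read against that share. The median log2 difference of the 33 genes was 0.25, beside 0.016 for all tested genes. The share of all tested genes whose values did not overlap between tags was not counted. Where the values of a tag are said below to lie apart, this describes them and is not read as a result about the gene. Against C singly, 16 lipid genes were higher and 7 lower, with 4777 of all tested genes called. Against TR singly, the counts were 18 and 4, with 4442 of all tested genes called. Of the genes called against the mean, SCD, FADS1, TM7SF2 and ACSS2 were not called against C. MVD, HSD17B7, SREBF1, NPC1 and HSD17B12 were not called against TR. The scale bears on the split. Under upper quartile scaling 14 lipid genes were higher and 9 lower, under quantile normalization 13 and 8, and after rescaling without mitochondrially encoded genes, an alternative added after the data were seen, 10 and 9. That last rescaling moved the median of all genes to −0.14, and relative to it the lipid median was 0.21 above, against 0.23 as deposited, 0.22 under upper quartile scaling and 0.075 under quantile normalization. The same 10 higher genes and 4 lower genes were called under every one of the 24 alternatives tried: MVK, PMVK, FDPS, LSS, NSDHL, EBP, DHCR7, SLC25A1, FASN and FADS2 higher, and GGPS1, ACSL3, TM7SF2 and HSD17B12 lower. Rescaling without mitochondrially encoded genes ended the higher calls of MVD, HSD17B7, TMEM97, ACLY, SCD, FADS1 and ELOVL1. Quantile normalization ended those of ACLY, SCD, FADS1 and ELOVL1, and upper quartile scaling those of HSD17B7, SCD and FADS1. Whether the mitochondrial share, the nuclear RNAs or another property of the NE libraries has a part in these differences was not tested. Bulk RNA cannot tell fewer cells expressing a gene from less RNA per cell.

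**Figure D2:**
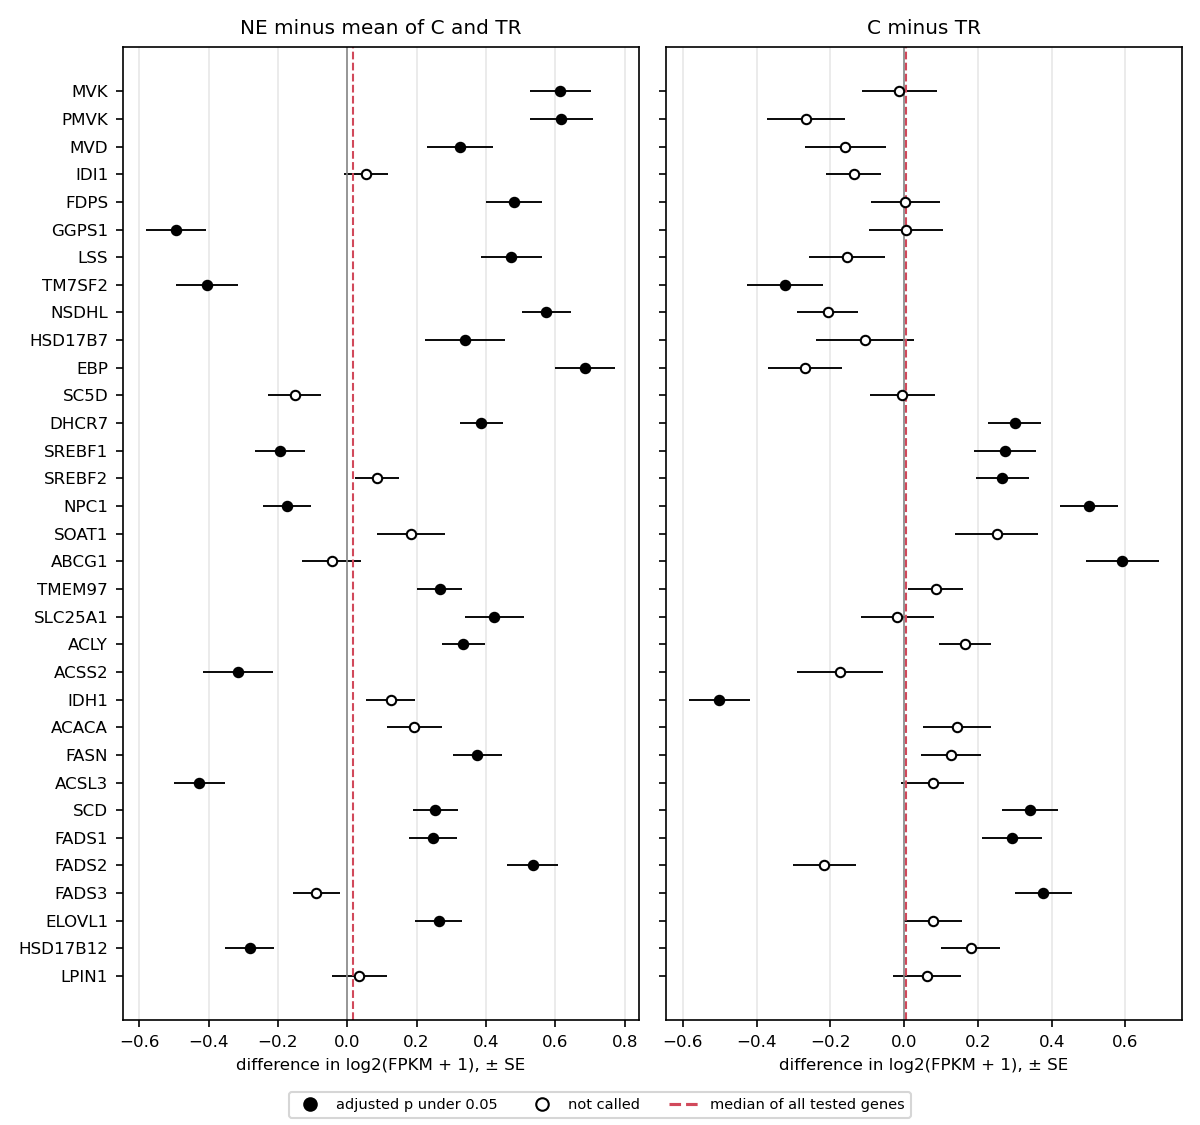
Difference of each gene on the log2(FPKM + 1) scale between NE and the mean of C and TR (left) and between C and TR (right), with the standard error as a bar; filled points passed an adjusted p of 0.05, and the dashed line is the median of all tested genes. In the left panel 17 filled points lie above 0 and 7 below; in the right panel 8 lie above and 2 below.

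Among the enzymes of the mevalonate and isoprenoid segment, 4 of 6 were higher in NE, 1 was lower and 1 was not called. Of all tested genes 28.0% were higher in NE and 24.0% lower, and the counts by role are read against these shares. MVK, which phosphorylates mevalonate, measured 26.98, 28.2, 31.2 and 37.6 FPKM in the NE libraries, 20.9, 20.9, 18.03 and 18.97 in C and 17.9, 20.4, 21.6 and 19.7 in TR. All 4 NE values lay above the other 8, and the log2 difference was 0.61 (SE 0.089, adjusted p = 9.29e-05). PMVK, the next kinase, measured 13.7, 15.7, 18.3 and 18.5 FPKM in NE, 9.203, 9.42, 9.48 and 9.39 in C and 13.1, 10.5, 10.7 and 11.8 in TR, a log2 difference of 0.62 (SE 0.091, adjusted p = 1.08e-04). The scrambled line and the treated miR-139 library stood well above the rest, whereas the untreated miR-139 NE library lay just above its TR partner. FDPS, which joins isoprenoid units into farnesyl diphosphate, the branch point to sterols, ubiquinone and prenylated proteins, measured 145, 154, 185 and 189.9 FPKM in NE, 119, 121, 113 and 127 in C and 129, 120.4, 111 and 118 in TR. Its C and TR values formed 1 narrow band below every NE value, and the log2 difference was 0.48 (SE 0.080, adjusted p = 2.76e-04). MVD, which decarboxylates the mevalonate diphosphate, measured 25.9, 29.7, 36.1 and 40.2 FPKM in NE, 23.6, 27.1, 21.7 and 25.03 in C and 27.6, 27.7, 26.9 and 26.9 in TR. Here the NE values of the miR-139 line lay near the other tags and those of the scrambled line above them, and the log2 difference over both lines was 0.33 (SE 0.095, adjusted p = 0.0108). Without the untreated or the treated scrambled NE library it was 0.25 or 0.23 (adjusted p = 0.0747 or 0.0772). IDI1, the isomerase that supplies the allylic isoprenoid unit, was not called. It measured 59.04, 55.1, 51.8 and 60.2 FPKM in NE, 50.96, 56.8, 44.99 and 55.3 in C and 57.6, 57.4, 55.6 and 57.8 in TR, with 2 NE values just above the range of the others and 2 inside it, and a log2 difference of 0.053 (SE 0.064, adjusted p = 0.509). GGPS1 branches off the sterol path, making geranylgeranyl diphosphate for protein prenylation, and went the other way. It measured 18.7, 12.3, 15.6 and 14.02 FPKM in NE, 21.8, 18.4, 21.99 and 24.7 in C and 22.4, 20.8, 19.8 and 23.2 in TR. NE was the lowest tag in all 4 groups, with a log2 difference of −0.49 (SE 0.086, adjusted p = 3.69e-04).

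After squalene, 5 of 7 sterol enzymes were higher in NE and 1 was lower, beside 28.0% and 24.0% of all tested genes. The remaining 1 was not called. LSS, which cyclizes squalene epoxide into lanosterol, measured 14.6, 14.9, 17.6 and 19.7 FPKM in NE, 11.4, 11.2, 10.7 and 10.7 in C and 11.9, 10.03, 14.2 and 13.7 in TR. Every NE value lay above the other 8, and the log2 difference was 0.47 (SE 0.088, adjusted p = 5.99e-04). NSDHL, a dehydrogenase in the removal of methyl groups from lanosterol, measured 48.9, 44.9, 50.97 and 58.5 FPKM in NE, 29.04, 33.1, 29.5 and 33.6 in C and 36.6, 34.1, 37.9 and 36.4 in TR, again without overlap. Its log2 difference was 0.57 (SE 0.072, adjusted p = 3.25e-05), and TR lay above C in each group, though C against TR was not called for this gene. EBP, the isomerase that shifts the double bond in the sterol ring, showed the largest difference of the 33 genes. It measured 105, 121, 128 and 154 FPKM in NE, 66.7, 79.3, 62.6 and 75.7 in C and 91.5, 91.3, 76.8 and 83.2 in TR. NE was above all other libraries, with a mean of 127 ± 20.2 FPKM (SD, n = 4) against 71.1 ± 7.73 in C and 85.7 ± 7.07 in TR, and a log2 difference of 0.69 (SE 0.087, adjusted p = 3.52e-05). HSD17B7, a reductase that works with NSDHL, was higher by 0.34 (SE 0.12, adjusted p = 0.0237) at a level of 3.499 to 6.97 FPKM. NE was highest in 3 of 4 groups, and without the treated scrambled NE library the difference was 0.22 (adjusted p = 0.167). Leaving out either scrambled C library ended the call as well. DHCR7, the last reductase of one route to cholesterol, measured 68.7, 66.1, 75.2 and 87.4 FPKM in NE, 59.1, 59.5, 64.7 and 67.6 in C and 44.3, 44.6, 55.5 and 60.1 in TR. NE exceeded C and C exceeded TR within every group, and both tag comparisons were called, with log2 differences of 0.39 (SE 0.062, adjusted p = 2.13e-04) for NE and 0.30 (SE 0.072, adjusted p = 0.0129) for C over TR. The latter call was lost without either miR-139 C library or the treated miR-139 TR library, at 0.27 to 0.28 (adjusted p = 0.0545 to 0.0606). TM7SF2, a sterol reductase of the endoplasmic reticulum, was the one sterol enzyme that was lower. It measured 16.97, 19.8, 28.2 and 22.5 FPKM in NE, 24.8, 21.6, 31.5 and 25.6 in C and 34.5, 30.3, 33.1 and 31.5 in TR. The order within every group was NE, then C, then TR, with log2 differences of −0.40 (SE 0.090, adjusted p = 0.00207) for NE and −0.32 (SE 0.10, adjusted p = 0.0484) for C over TR. The call of C over TR was lost under 15 of the 24 alternatives. SC5D, a sterol desaturase, ranged from 14.6 to 18.9 FPKM and was not called in either comparison.

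Of the 2 SREBP genes, 1 was lower in NE than the mean of C and TR, beside 24.0% of all tested genes. The other was not called. Both SREBP genes were higher in C than in TR, beside 8.16% of all tested genes. SREBF2 measured 66.4, 84.1, 77.8 and 85.5 FPKM in NE, 79.5, 82.6, 79.5 and 81.2 in C and 62.8, 70.4, 65.8 and 69.00 in TR. NE was not called against the other tags, with a log2 difference of 0.086 (SE 0.063, adjusted p = 0.268), while all C values stood above all TR values, by 0.27 (SE 0.073, adjusted p = 0.0239). SREBF1 measured 53.8, 58.8, 68.3 and 67.02 FPKM in NE, 82.98, 77.7, 75.6 and 75.1 in C and 64.9, 61.9, 66.5 and 63.7 in TR. It was highest in C, by 0.27 (SE 0.083, adjusted p = 0.0385) over TR. NE was lower than the mean of C and TR, at −0.19 (SE 0.072, adjusted p = 0.0364), with −0.34 in miR-139 cells against −0.049 in scrambled ones. In a fit with a line by tag term this difference between the lines was not called, at 0.29 (SE 0.091, adjusted p = 0.0507). Against TR alone NE was not called, at −0.057 (SE 0.083, adjusted p = 0.601). Tag means were 62.0 FPKM in NE, 64.2 in TR and 77.8 in C. The call of NE against the mean was lost under 12 of the 24 alternatives, among them leaving out any 1 library of the miR-139 line. The SREBF2 call of C over TR was lost under 8 of 24 and the SREBF1 one under 15.

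Of the 4 cholesterol handling genes, 1 was higher in NE than the mean of C and TR, 1 was lower and 2 were not called. The shares of all tested genes were 28.0% higher and 24.0% lower. ABCG1, which exports cholesterol to lipoproteins and is induced by the sterol-sensing LXR receptors, measured 18.4, 17.99, 17.4 and 15.6 FPKM in C, 11.8, 11.5, 10.3 and 11.2 in TR and 11.4, 16.3, 13.6 and 12.9 in NE. C exceeded TR in all 4 groups without overlap, by 0.59 (SE 0.098, adjusted p = 0.00142), the largest difference between C and TR among the 33 genes, and NE lay between them on average. NPC1, which releases cholesterol from lysosomes, measured 27.2, 23.2, 25.2 and 25.4 FPKM in C, 17.2, 16.3, 17.6 and 19.2 in TR and 19.6, 18.1, 16.6 and 20.03 in NE. Here C stood apart from both other tags, with a log2 difference of 0.50 (SE 0.079, adjusted p = 0.00105) over TR. NE was lower than the mean of C and TR, at −0.17 (SE 0.069, adjusted p = 0.0472), but was not called against TR alone, at 0.077 (SE 0.079, adjusted p = 0.454). The call of NE against the mean was lost under 15 of the 24 alternatives, among them 9 of the 12 that leave out a library. TMEM97, an endoplasmic reticulum protein that limits NPC1 levels, measured 43.6, 45.5, 42.6 and 45.6 FPKM in NE, 34.5, 42.8, 35.7 and 38.8 in C and 37.00, 36.9, 34.2 and 34.3 in TR. NE was the highest tag in every group, though by little in some, and the log2 difference was 0.27 (SE 0.064, adjusted p = 0.00344). SOAT1, which esterifies cholesterol for storage, measured 21.6, 16.9, 15.9 and 16.3 FPKM in NE, 16.3, 16.6, 17.04 and 17.2 in C and 12.4, 12.2, 15.9 and 15.8 in TR. The untreated miR-139 NE library stood above all others, and neither tag comparison passed, with 0.18 (SE 0.098, adjusted p = 0.131) for NE.

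In fatty acid synthesis and its supply of precursors, 3 of 6 genes were higher in NE, 1 was lower and 2 were not called. Beside these counts, 28.0% of all tested genes were higher and 24.0% lower. SLC25A1, the mitochondrial citrate carrier, measured 99.2, 109, 135 and 151 FPKM in NE, 90.6, 85.3, 91.6 and 92.1 in C and 94.2, 90.8, 85.9 and 93.5 in TR. The C and TR libraries were close to each other, and NE lay above them by a log2 difference of 0.42 (SE 0.086, adjusted p = 0.00104), more in the scrambled line. ACLY, which splits the exported citrate into acetyl-CoA and oxaloacetate, measured 129, 130.4, 128 and 148 FPKM in NE, 114, 113, 108 and 114 in C and 95.00, 94.4, 103 and 107 in TR. All NE values exceeded the other 8, by 0.34 (SE 0.061, adjusted p = 4.95e-04). FASN, the enzyme that builds palmitate, measured 60.6, 64.1, 68.8 and 87.1 FPKM in NE, 53.5, 59.7, 53.1 and 57.2 in C and 47.1, 50.5, 50.3 and 56.6 in TR. NE was highest within each group, most of all in treated scrambled cells, and the log2 difference was 0.38 (SE 0.071, adjusted p = 6.97e-04). ACSS2, which makes acetyl-CoA from acetate, was lower, with a log2 difference of −0.32 (SE 0.10, adjusted p = 0.018) at 24.5 to 42.9 FPKM. Without the untreated miR-139 NE library it was −0.19 (adjusted p = 0.0999). ACACA, the carboxylase that makes malonyl-CoA for FASN, ranged from 28.2 to 43.3 FPKM and was not called in NE, at 0.19 (SE 0.080, adjusted p = 0.0553). IDH1, a cytosolic source of NADPH, measured 32.4, 26.98, 28.8 and 24.8 FPKM in NE, 22.2, 22.3, 19.8 and 21.6 in C and 31.4, 32.5, 29.3 and 29.9 in TR. It was not called in NE, but every C value lay below every TR value, with a log2 difference of −0.50 (SE 0.082, adjusted p = 0.00125).

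Of the 8 genes that activate, desaturate, elongate or hand on fatty acids, 4 were higher in NE, 2 were lower and 2 were not called. Among all tested genes 28.0% were higher and 24.0% lower. SCD, which places the first double bond in saturated fatty acids, measured 339.6, 337, 337 and 344 FPKM in NE, 318, 301, 332 and 331 in C and 231, 247, 255 and 279 in TR. Every NE library stood above every C library, though NE was not called against C singly, at 0.083 (SE 0.075, adjusted p = 0.377). Every C library stood above every TR library. C exceeded TR by 0.34 (SE 0.075, adjusted p = 0.00789) and NE exceeded their mean by 0.25 (SE 0.065, adjusted p = 0.00499). FADS1, a desaturase of polyunsaturated fatty acids, measured 82.1, 76.1, 75.1 and 80.6 FPKM in NE, 71.9, 70.3, 76.9 and 73.4 in C and 52.9, 54.7, 68.2 and 63.4 in TR. TR was lowest here as well, while NE and C overlapped, at 0.29 (SE 0.080, adjusted p = 0.0247) for C over TR and 0.25 (SE 0.070, adjusted p = 0.00899) for NE. Leaving out any of 6 single libraries ended the call of C over TR. FADS2, which acts before FADS1 on the same fatty acids, measured 107, 108, 136 and 137 FPKM in NE, 80.2, 76.97, 72.7 and 78.7 in C and 83.00, 82.4, 96.5 and 98.3 in TR. NE lay above all others by 0.54 (SE 0.074, adjusted p = 6.42e-05), and here C, not TR, was lowest, though C against TR did not pass, at −0.22 (SE 0.085, adjusted p = 0.0953). FADS3, their relative that acts on sphingoid bases, measured 46.2, 46.9, 55.9 and 60.3 FPKM in C, 37.2, 39.2, 40.5 and 42.5 in TR and 34.9, 38.9, 46.6 and 52.5 in NE. C was highest in each group, by 0.38 (SE 0.078, adjusted p = 0.00581) over TR, and NE was not called at −0.089 (SE 0.068, adjusted p = 0.287). ELOVL1, an elongase of very long chains, was higher in NE by 0.26 (SE 0.068, adjusted p = 0.00541) at 44.8 to 68.3 FPKM. HSD17B12, the reductase of the elongation cycle, measured 75.1, 65.4, 62.4 and 66.00 FPKM in NE, 81.6, 81.2, 92.9 and 93.4 in C and 80.9, 69.7, 78.02 and 78.9 in TR. It was lowest in NE within every group, with a log2 difference of −0.28 (SE 0.069, adjusted p = 0.00394). ACSL3, which activates fatty acids on the endoplasmic reticulum and lipid droplets, measured 33.7, 29.4, 24.3 and 27.5 FPKM in NE, 39.02, 40.9, 38.5 and 40.7 in C and 37.2, 41.7, 36.4 and 35.5 in TR. Each NE value lay below the other 8, with a log2 difference of −0.43 (SE 0.073, adjusted p = 3.39e-04). LPIN1, a phosphatidate phosphatase that also acts in gene control, ranged from 27.9 to 37.1 FPKM and was called in neither tag comparison.

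**Figure D3:**
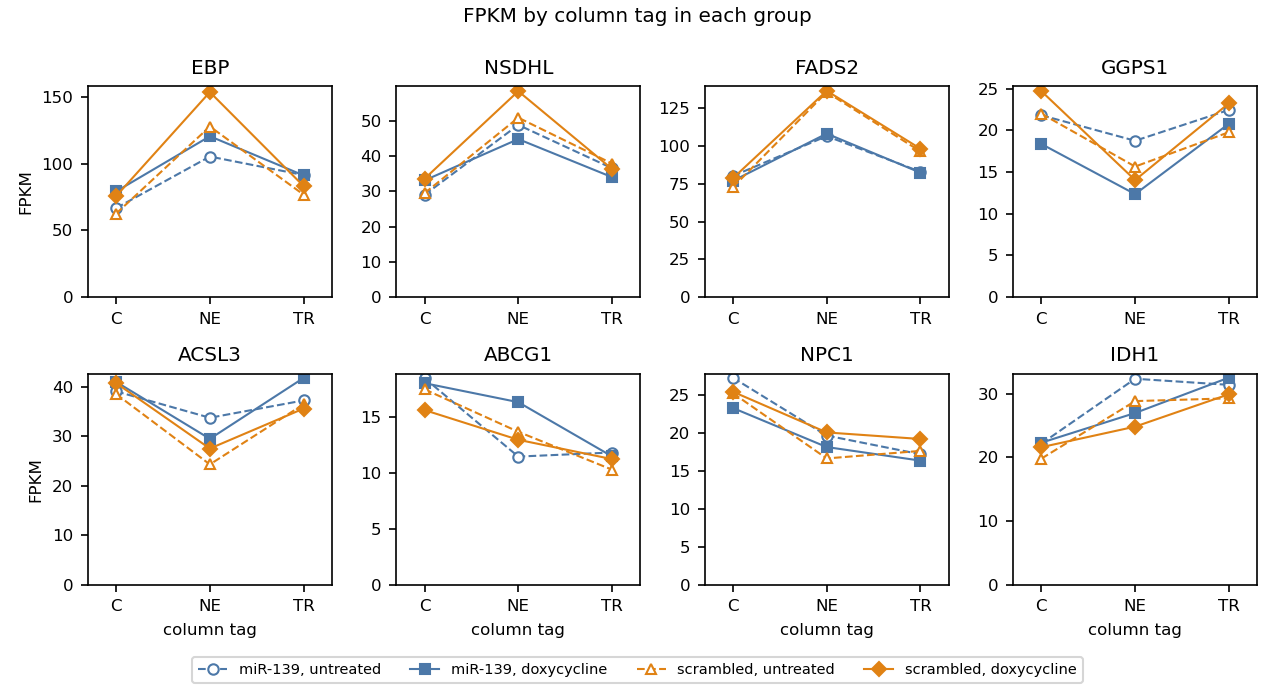
FPKM by column tag for 8 of the genes in each of the 4 groups; lines join the 3 libraries of a group, color gives the line, and open markers are untreated. EBP, NSDHL and FADS2 peak in NE and GGPS1 and ACSL3 dip there in all 4 groups, ABCG1 and NPC1 fall from C to TR, and IDH1 is lowest in C.

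C against TR gave fewer calls among all genes, 16.6% of the 9778 tested, with 8.16% higher in C and 8.49% lower, beside 10 of the 33 lipid genes. The lipid median was 0.061, beside 0.0050 for all tested genes. ABCG1, NPC1, FADS3 and IDH1 were called under every one of the 24 alternatives tried for this comparison, and the other 6 calls were lost under at least 1. Without the untreated miR-139 group 5 genes were called, without the treated miR-139 group 4, and without the treated scrambled group 6. Of single libraries, leaving out the untreated miR-139 C or the treated miR-139 TR library gave 5, and the treated miR-139 C or the untreated scrambled C library 6. COL1A1, the only fibroblast marker above 1 FPKM on average, moved with these tags as well: the fibroblast list summed to a mean of 92.9 FPKM in TR, 43.6 in C and 50.1 in NE. The thyroid list, almost all of it PAX8, summed to 122.9 FPKM in TR, 121 in NE and 75.8 in C. The part of either list in the result was not tested.

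For 6 lipid genes the NE difference passed a test of its difference between the lines, a result that rested on single libraries. A fit with a line by tag term, added after the data were seen, tested the NE difference in the scrambled line minus that in the miR-139 line. In this fit the untreated and the treated NE library of a line were its only NE replicates. Of all tested genes 14.8% were called, 9.54% higher and 5.31% lower. Among the 33 lipid genes 4 of the 6 called were higher and 2 lower. MVD differed by 0.52 (SE 0.10, adjusted p = 0.0174), with an NE difference of 0.59 in the scrambled line and 0.065 in the miR-139 line. FDPS, EBP and SLC25A1 were higher in both lines and more so in the scrambled line, with NE differences of 0.67 and 0.29 for FDPS, 0.91 and 0.46 for EBP, and 0.65 and 0.20 for SLC25A1. For SOAT1 the NE difference was −0.033 in the scrambled line and 0.40 in the miR-139 line, and for LPIN1 −0.14 and 0.21. The NE libraries of the scrambled line also had the 2 highest sums of all FPKM values, 617490 and 664359. None of the 6 calls held under all 16 alternatives, though all 6 kept their sign. No gene was called without the treated scrambled NE library, or without the untreated miR-139 NE library. Without the untreated miR-139 TR library 1 was called, without the untreated scrambled TR library 3, and without the treated miR-139 NE library 10. Scale moved the split too: upper quartile scaling gave 4 higher and 5 lower, quantile normalization 1 and 5, and rescaling without mitochondrially encoded genes 0 and 8. That rescaling shifted the median difference of all genes from 0.044 to −0.14.

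Doxycycline in the miR-139 line combines induction of the miRNA with the drug itself and possibly with time in culture. It gave log2 changes from −0.30 to 0.18 for the 33 genes. None was called, as was none of the 9778 tested genes (0% called), and no lipid gene reached an unadjusted p of 0.05, against 72 of all genes. HNRNPF, lower with doxycycline in every tag, was thus not called in this fit either. The fit leaves the differences between tags in its error, so 0 calls do not show that the lipid genes were unchanged. The median log2 change of the 33 genes was −0.012, beside 0.0032 for all genes, with 13 values above 0 and 20 below. GGPS1 had the largest change. It measured 21.8, 18.7 and 22.4 FPKM untreated (C, NE, TR) and 18.4, 12.3 and 20.8 FPKM treated, a log2 change of −0.30 (SE 0.23, and 0.11 with the tag as block). The treated library was the lower one within each tag, but the groups overlapped. SREBF2 measured 79.5, 66.4 and 62.8 FPKM untreated and 82.6, 84.1 and 70.4 FPKM treated, higher within each tag, with a log2 change of 0.18 (SE 0.14, and 0.084 with the tag as block). EBP measured 66.7, 105 and 91.5 FPKM and 79.3, 121 and 91.3 FPKM, a log2 change of 0.14 (SE 0.31, and 0.12 with the tag as block). Within tags the changes were 0.24 in C, 0.19 in NE and −0.0039 in TR. In the fit without the block the value turned negative when the untreated C library or the treated NE library was left out, which leaves the tags unbalanced between the groups.

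With the tag as a replicate block, which the pairing of the libraries calls for, the log2 changes stay as they are and their errors shrink. The number of lipid genes called stayed 0 in all 5 group comparisons. Of all tested genes, 0.0205% were then called for doxycycline in the miR-139 line, 0.0102% for the interaction and 0.112% for the treated lines, and 0% in the remaining ones. At an unadjusted level of 0.05 the block left 2 lipid genes for doxycycline in the miR-139 line, against 438 of all genes, 1 for doxycycline in the scrambled line against 391, 1 for the interaction against 336, 2 for the treated lines against 702, and 3 for the untreated lines against 435.

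In the scrambled line, which serves as the control for the drug, 0 lipid genes were called (0% of all genes) and 0 reached an unadjusted 0.05, against 47 of all genes. The median log2 change of the 33 genes was 0.073, beside 0.023 for all tested genes, and 27 of 33 values were above 0 against 57.8% of all genes. Upper quartile scaling and quantile normalization each left 24 of 33 above 0. TM7SF2 measured 31.5, 28.2 and 33.1 FPKM untreated (C, NE, TR) and 25.6, 22.5 and 31.5 treated, a log2 change of −0.22 (SE 0.23, and 0.12 with the tag as block). EBP measured 62.6, 128 and 76.8 FPKM untreated and 75.7, 154 and 83.2 treated, higher within each tag, at 0.22 (SE 0.31, and 0.12 with the tag as block). Within tags the changes were 0.27 in C, 0.26 in NE and 0.11 in TR. In the fit without the block, leaving out the untreated C library or the treated NE library turned the sign, and again left the tags unbalanced. FASN measured 53.1, 68.8 and 50.3 FPKM untreated and 57.2, 87.1 and 56.6 treated, at 0.20 (SE 0.19, and 0.095 with the tag as block). For each of these genes the spread over tags was wider than the change. ACACA was picked out after its values were seen, because its untreated and treated values did not overlap in this line. They were 36.6, 35.5 and 34.3 FPKM and 37.2, 40.2 and 38.6 FPKM. ACACA was not called, and the share of all tested genes without overlap was not counted. The lack of overlap is therefore not read as a result about this gene.

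**Figure D4:**
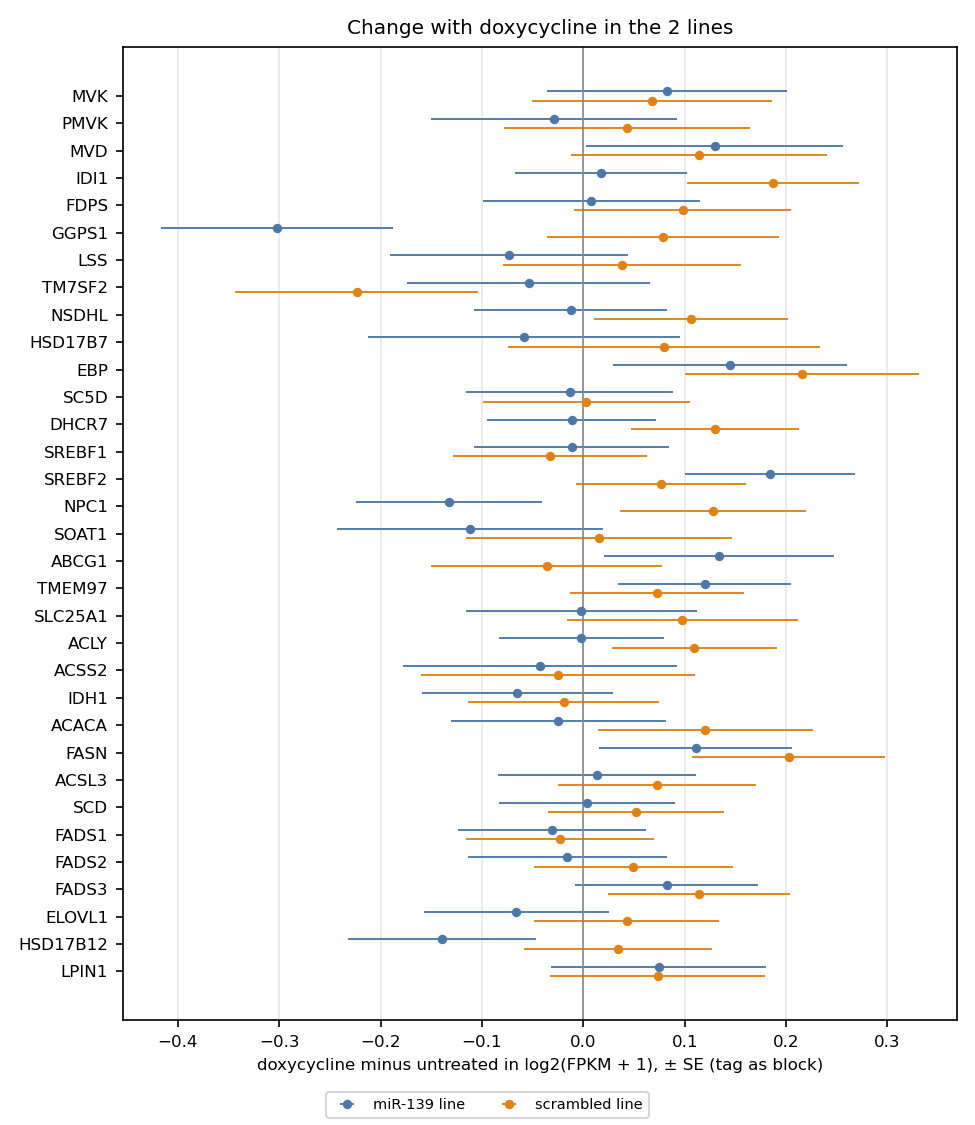
Log2 change with doxycycline of each gene on the log2(FPKM + 1) scale in both lines, with standard errors from the fit with the tag as block. No gene was called in either line; GGPS1 at −0.30 lies farthest from 0.

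The interaction, the change in the miR-139 line minus that in the scrambled line, tested whether the lines responded differently. It called 0 lipid genes (0% of all genes), with none at an unadjusted 0.05 against 41 of all genes. The median was −0.071 for the 33 genes, 25 of them negative, beside −0.021 for all genes, and upper quartile scaling and quantile normalization left 21 and 22 negative, with medians of −0.029 and −0.030 beside 0.018 and 0.00033 for all genes. The largest values were −0.38 (SE 0.32, and 0.16 with the tag as block) for GGPS1, −0.26 (SE 0.30, and 0.13 with the tag as block) for NPC1 and −0.17 (SE 0.24, and 0.13 with the tag as block) for HSD17B12. Each of the 3 was negative within every tag. NPC1 measured 27.2, 19.6 and 17.2 FPKM (C, NE, TR) in untreated and 23.2, 18.1 and 16.3 in treated miR-139 cells, a lower value with treatment in each tag. In scrambled cells it measured 25.2, 16.6 and 17.6 FPKM untreated and 25.4, 20.03 and 19.2 treated, a higher value in each tag. HSD17B12 measured 81.6, 75.1 and 80.9 FPKM in untreated and 81.2, 65.4 and 69.7 in treated miR-139 cells. In the scrambled line it measured 92.9, 62.4 and 78.02 FPKM untreated and 93.4, 66.00 and 78.9 treated. Both genes differed more between tags than between treatments.

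Between the treated lines, 0 lipid genes were called (0% of all genes), with none at an unadjusted 0.05 against 105 of all genes. The median was −0.12, beside −0.010 for all genes, and 25 of the 33 values were lower in the miR-139 line. Without the NE libraries the lipid median was −0.056. DHCR7 had the largest value. It measured 59.5, 66.1 and 44.6 FPKM in treated miR-139 cells and 67.6, 87.4 and 60.1 in treated scrambled cells, a log2 difference of −0.33 (SE 0.21, and 0.083 with the tag as block), lower within each tag. With the block its adjusted p was 0.219, the smallest of any lipid gene in any group comparison. FADS3 measured 46.9, 38.9 and 39.2 FPKM and 60.3, 52.5 and 42.5 FPKM, at −0.30 (SE 0.17, and 0.090 with the tag as block). LSS measured 11.2, 14.9 and 10.03 FPKM and 10.7, 19.7 and 13.7 FPKM, at −0.25 (SE 0.23, and 0.12 with the tag as block), with C alone showing no lower value in the miR-139 line. This comparison shares its treated libraries with the doxycycline comparisons, so their values do not stand apart.

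Between the untreated lines, 0 lipid genes were called (0% of all genes), with none at an unadjusted 0.05 against 58 of all genes. The median was −0.021, beside −0.00087 for all genes. TM7SF2 measured 24.8, 16.97 and 34.5 FPKM in untreated miR-139 cells against 31.5, 28.2 and 33.1 in untreated scrambled cells, at −0.33 (SE 0.23, and 0.12 with the tag as block), lower within C and NE but not within TR. FADS3 measured 46.2, 34.9 and 37.2 FPKM against 55.9, 46.6 and 40.5, at −0.27 (SE 0.17, and 0.090 with the tag as block). DHCR7 measured 59.1, 68.7 and 44.3 FPKM against 64.7, 75.2 and 55.5, at −0.19 (SE 0.21, and 0.083 with the tag as block). FADS3, DHCR7 and NSDHL were lower in the miR-139 line within each tag before doxycycline as well as after it. IDH1 and ACSL3 were higher in the same way. None of these genes passed the test in either case, and the share of all tested genes that kept their sign likewise was not counted.

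Beyond the 33 genes, a list of 48 further genes of sterol and fatty acid metabolism was read in the same fits. Of these 24 were in the table used here and 21 passed the filter on low values. No gene of the list was called in any of the 5 group comparisons, with or without the block. In NE 5 of the 21 were higher and 5 lower, beside 28.0% and 24.0% of all tested genes, with a median of 0.0062. Among the higher ones were DGAT2, which makes triglyceride, at 0.76, C14orf1, a scaffold of sterol demethylation, at 0.36, LIPA, the lysosomal lipase that frees cholesterol, at 0.32, and TECR, a reductase of fatty acid elongation, at 0.28. The lower ones were ACSL5 at −0.53, MBTPS2, a protease that cleaves SREBP, at −0.50, LPIN3 at −0.44, INSIG2, which holds SREBP in the endoplasmic reticulum, at −0.35, and ACSL4 at −0.33. MBTPS1, the other protease that cleaves SREBP, was not called, at −0.062. Between C and TR, with 8.16% of all tested genes higher and 8.49% lower, 2 of the list were higher, ACSL4 and OSBP, and 4 lower, among them LIPA, LPIN3 and NPC2.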

How the data were processed

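Expression was measured by RNA-seq in 12 libraries of polyA RNA, made with a strand-keeping kit and sequenced on an Illumina instrument, per the labels' protocols. The authors deposited 1 table of FPKM values, which are scaled to transcript length and to the fragments of each library, so that genes taking a larger share of a library lower all others in it. Tools listed in the submitters' processing notes include STAR 2.5, TopHat2 2.0.10, HTSeq and Cufflinks, and the builds listed are hg19 and GRCh37. Which tool made the FPKM values, with which annotation, is not given in the sources used here. Genes outside the 37471 rows used were not analysed here, and 0 value columns were left unmapped. No 2 libraries held identical values.

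Column names hold a group and a tag, and titles hold a letter that nothing ties to a tag, so libraries were assigned to groups only. Tests were run in R 4.3.3 with limma 3.58.1, with a variance trend, on FPKM values brought to log2 after adding 1, for genes with a mean FPKM of at least 1. All tests were two-sided with Benjamini-Hochberg adjustment over the 9778 tested genes and a threshold of 0.05. Log2 values understate the change of low genes. The 5 group comparisons came from a fit of 4 group means, and the tag comparisons from a fit with tag and group. The line by tag fit, NE against C and TR singly, and the rescaling without mitochondrially encoded genes were chosen after seeing the data. The scripts were tested on simulated data.

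The tags pair the libraries: deviations from group means correlated at r = 0.33 to 0.86 over the 18 pairs of libraries with the same tag, and at −0.66 to 0.14 over the 36 pairs with different tags. The tag was therefore also fitted as a replicate block.

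The 33 genes, the role classes and the list of 48 further genes were chosen with earlier results of these data known. Counts over lists cover all their members, but values of some are not reported here. Values in every library are given for both SREBP genes, the 3 highest genes of each role, the 3 largest changes of each group comparison, and up to 12 genes called per tag comparison. The exception, ACACA in the scrambled line, was chosen after its values were seen. Alternatives were the pseudocount, the filter, upper quartile and quantile scaling, no variance trend, no group term, and leaving out each library and each group. Promoters and the miRNA came from RefSeq (GRCh38.p14), and 3′ UTRs from GENCODE 29.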

Additional observations from a re-analysis of the deposited data

Results flagged for a closer look

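The difference between NE and the mean of C and TR differed between the lines for 6 lipid genes, tested by the line by tag term in limma (scrambled minus miR-139, log2 scale, 4 NE and 8 other libraries). Each line entered with only its untreated and its treated NE library, taken as replicates beside a common doxycycline term. Of all tested genes 14.8% were called by this term. It was larger in the scrambled line for 4 of the 6 genes. MVD, the decarboxylase of the mevalonate segment, differed by 0.52 (SE 0.10, adjusted p = 0.0174), SLC25A1, the citrate carrier, by 0.44 (SE 0.097, adjusted p = 0.0199), EBP, the sterol isomerase, by 0.45 (SE 0.098, adjusted p = 0.0202), and FDPS, the farnesyl diphosphate synthase, by 0.39 (SE 0.092, adjusted p = 0.0224). For SOAT1, which esterifies cholesterol, and LPIN1, a phosphatidate phosphatase, the term was negative, at −0.43 (SE 0.13, adjusted p = 0.0428) and −0.35 (SE 0.096, adjusted p = 0.0334). The split depended on the scale: quantile normalization gave 1 higher and 5 lower, and rescaling without mitochondrially encoded genes 0 and 8, with all 4 higher calls lost. None of the 6 calls held when the untreated miR-139 NE library or the treated scrambled NE library was left out. Both NE libraries of a line lay on the same side of the C and TR mean for SOAT1 and LPIN1 within each line, above it in the miR-139 line and below it in the scrambled line. The share of mitochondrially encoded genes was lower in the NE libraries of the scrambled line (8.32 and 6.08%) than in those of the miR-139 line (9.18 and 7.56%) at matched treatment. The part of that share in these differences was not tested.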

How the results depend on the processing

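The number of lipid genes called stayed 0 in all 5 group comparisons under every alternative, the replicate block included, which gave 0 in each and changed no call. For NE against C and TR, 21 to 23 of the 24 genes were called when a library was left out. For C against TR, 10 as reported, leaving out 1 library gave 5 to 12, and leaving out a group gave 5 (miR-139 untreated), 4 (miR-139 with doxycycline) and 6 (scrambled with doxycycline). The difference of NE between lines, 6 as reported, ranged from 0 to 10 when a library was left out. The cause was not tested. Of single genes, EBP ranged from −0.039 to 0.29 for doxycycline in the miR-139 line (0.14 as reported) and from −0.099 to 0.51 in the scrambled line (0.22 as reported) when 1 library was left out, which unbalances the tags in the fit without the block. Over the 55 results on single genes, 1099 alternative values kept direction and side of the threshold, 153 lost the call and 4 turned sign. The 55 include group comparison results that were not called and so had no call to lose. All the lost calls fell among the tag and line by tag results. The FPKM values hold no counts, so depth sets no stated limit here, and 3 libraries a group limit the group comparisons.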
